A study of Sus scrofa with 20 samples.

Results

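Complement component C3, the C1q subunit gene C1QC and the complement regulator CD55 were followed in the kidneys of pigs after neurologic death (ND) and in control pigs. The members were all probe sets whose gene symbol in the platform annotation was C3, C1QC or CD55, which gave 7 of the 23999 probe sets tested: 1 for C3, 1 for C1QC and 5 for CD55. Each of 20 animals gave 1 kidney RNA sample for a 1-colour Affymetrix porcine array. The 10 ND animals had a burr hole, catheters and anaesthesia, and a balloon catheter under the dura was inflated until ND was established. The 10 control animals had the burr hole, catheters and anaesthesia without the balloon. Animals of both groups were ventilated for 6 h after randomisation and could receive 2 cc/kg boluses of 0.9% saline to hold the mean arterial pressure above 35 mmHg, so the controls too carry surgery, anaesthesia and ventilation. Strain, sex and age were not given in the labels, and the animals are named here by group and number (ND_47, Control_157).

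Complement is a cascade of plasma and cell-surface proteins that marks targets for uptake and lysis. C1q, built from the products of C1QA, C1QB and C1QC, recognises antibody complexes and damaged cells and starts the classical pathway, and it is made mostly by macrophages and dendritic cells. C3 is the protein on which all activation routes converge. Its cleavage releases the inflammatory fragment C3a and deposits C3b on surfaces, and although the liver supplies most plasma C3, tubular epithelium of the kidney makes it as well. CD55, or decay-accelerating factor, is a membrane protein that speeds the decay of the convertases that cleave C3 and so protects host cells.

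Values are log2 signals as deposited, and every difference is ND minus control on that scale, estimated with limma and with p-values adjusted by Benjamini and Hochberg's method over the 23999 tested probe sets. Differences with an adjusted p under 0.05 are called changed. In all 1712 probe sets, or 7.13%, were changed, 913 of them higher and 799 lower in ND. Array medians lay between 5.15 and 5.35 in ND and between 5.09 and 5.28 in controls, and the number of arrays, 10 per group, limits the precision. The background level, 2.79, was the highest value reached by 23 control probe sets for artificial tags and a bacterial gene, which have no counterpart in pig RNA. Of 11 kidney markers the 3 with a named probe set, LRP2, AQP1 and KCNJ1, averaged 13.60, 13.00 and 10.17 in ND and 13.35, 13.02 and 10.67 in controls, far above background. The hepatocyte transcripts APOB and SERPINA1 were at background on all arrays, albumin was above it on 1 ND array and 1 control array, and APOA1 and TTR were above it on all arrays.

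C3 was higher in ND kidneys. Its signal (probe set Ssc.61.1.S1_at) had a lowest, median and highest value of 7.61, 8.40 and 9.19 in ND animals and of 7.01, 7.57 and 8.24 in control animals. The groups overlapped: 5 of 10 ND values lay above the highest control value, that of Control_156, and the other 5 within the control range. At least 5 ND values above all controls were found for 7.07% of all probe sets. All 10 ND animals were above the control mean. C3 averaged 8.36 ± 0.52 in ND and 7.58 ± 0.38 in controls (SD, n = 10 each). The difference was 0.79 ± 0.20 (SE), or 1.72-fold with a 95% interval of 1.29 to 2.30, and passed the threshold (limma adjusted p = 0.0209). ND_22 had the highest C3 value and ND_31, at 7.61, the lowest of the ND group. The call held when any 1 animal was left out, with adjusted p-values between 0.0101 and 0.0411, but not without ND_47 and ND_92 together (0.67, limma adjusted p = 0.0661). It was also lost with a term for the animal number (0.52, limma adjusted p = 0.328) and among the 8 animals from Control_184 upwards (0.43, limma adjusted p = 0.484), as described with the animal numbers.

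C1QC did not pass the threshold, although its mean was higher in ND. The single C1QC probe set (Ssc.17316.1.S1_at) ranged from 8.51 to 10.88 with a median of 9.51 in ND animals, and from 8.56 to 9.38 with a median of 9.05 in control animals. The spread was wider in ND, with an SD of 0.71 against 0.29 in controls, and ND held both the highest and the lowest value of all 20 arrays. ND_47, ND_22 and ND_92 read 10.88, 10.52 and 10.36, whereas ND_198 read 8.51. In ND 7 of 10 values exceeded the highest control, and at least 7 did so for 2.61% of all probe sets, but ND_193 and ND_194, at 9.39 and 9.38, lay close to the 9.38 of Control_197. C1QC averaged 9.70 ± 0.71 in ND and 8.98 ± 0.29 in controls (SD, n = 10 each). The difference was 0.72 ± 0.24 (SE), or 1.64-fold with an unadjusted 95% interval of 1.17 to 2.31 (limma adjusted p = 0.0731). Without ND_198 it was 0.85 and passed (limma adjusted p = 0.0182), and without ND_47 and ND_92 it was 0.49 (limma adjusted p = 0.185).

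**Figure D1:**
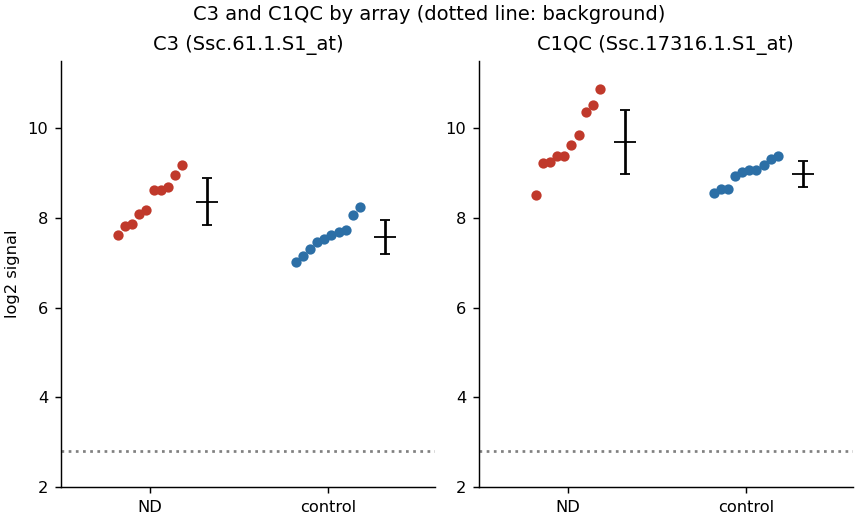
Log2 signal of C3 and C1QC on each array, with ND on the left and control on the right of each panel. Points are animals sorted by value, bars show the mean ± SD of 10 animals, and the dotted line marks the background level of 2.79. All C3 and C1QC values lie far above background, the groups overlap for both genes, and the ND values of C1QC spread over a wider range (SD 0.71) than those of controls (SD 0.29).

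C1QA, which lies next to C1QC in the pig reference annotation (Sscrofa11.1) and encodes another chain of the same C1q molecule, had a similar difference that did not pass either (0.70 ± 0.34, SE; limma adjusted p = 0.173). C1QA had a median of 6.43 and a highest value of 7.77 in ND, against a median of 5.98 and a highest value of 6.24 in controls. No probe set carried the symbol of C1QB, the neighbour on the other side. In whole kidney RNA, more cells of a type and more RNA per cell cannot be told apart, so marker levels are given beside these values. Of all 6765 genes, by their brightest probe set, 5.44% were called higher and 4.55% lower. Of 18 listed monocyte and macrophage markers 12 were measured: 3 (25%) were higher in ND, 3 (25%) were lower, 6 did not pass, and MARCO, ITGAM and FCGR1A were at background on all arrays. Their summed signal had a log2 value of 11.56 to 12.87 in ND and 11.13 to 12.06 in controls. Signals were summed before the log, so the brightest gene weighs most. That was CTSS, which averaged 11.63 in ND and 10.78 in controls. LAPTM5, a lysosomal membrane protein of leukocytes, rose by 1.11 ± 0.21, the protease gene CTSS by 0.85 ± 0.16 and TYROBP, a signalling adaptor of myeloid and NK cells, by 0.68 ± 0.18 (SE). CD163, the haemoglobin scavenger receptor of resident macrophages, fell by 2.04 on the log2 scale, and MRC1, the mannose receptor, fell by 0.87. CD14, the lipopolysaccharide co-receptor, fell by 0.54. Second probe sets of LAPTM5 and CD14 differed by -0.05 and -0.03 and were not called, whereas that of CD163 was called lower (-1.75). Of 2 other CTSS probe sets, which differed by 0.37 and 1.13, 1 was called higher. Of 6 dendritic cell markers 2 were measured: the maturation marker CD83 was higher by 1.96 (limma adjusted p = 0.00691) and CCR7 was at background on all arrays. A second CD83 probe set differed by 0.23 and was not called. Of 12 neutrophil markers 6 were measured, of which S100A8, S100A12, TREM1, ELANE and MMP9 were at background on all arrays and S100A9 differed by -0.31 (limma adjusted p = 0.694). Of 10 T and NK cell markers 8 were measured and 4 (50%) were higher, against the 5.44% of all genes, with a summed log2 signal of 6.90 to 8.70 in ND and 6.17 to 7.16 in controls. The brightest of them, GNLY, averaged 6.66 in ND and 5.17 in controls. CD3E, among those called higher, read above background on 5 ND arrays and on no control array. LCK, also called higher, did so on 10 ND arrays and 8 control arrays, and PRF1 was at background on all arrays. The part of any cell type in the C3, C1QC and CD55 differences was not tested.

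CD55 was higher in ND kidneys by both of its probe sets that read above background. The brighter one (Ssc.272.1.S1_a_at, whose suffix marks probes shared by alternative transcripts of a gene) had a lowest, median and highest value of 3.93, 5.25 and 6.37 in ND animals and of 2.82, 3.88 and 4.12 in control animals. The ND animals fell on both sides of a gap: ND_86, ND_193 and ND_198 read 3.93, 3.97 and 4.04, within the control range, and the other 7 read 4.88 to 6.37, above all controls. At least 7 ND values above all controls were found for 2.61% of all probe sets. CD55 averaged 5.07 ± 0.85 in ND and 3.79 ± 0.37 in controls (SD, n = 10 each). The difference was 1.28 ± 0.28 (SE), or 2.43-fold with a 95% interval of 1.61 to 3.67 (limma adjusted p = 0.00964). It ranked as the 117th largest rise of 23999 probe sets, and leaving out any 1 animal gave adjusted p-values of 0.00491 to 0.0204. The call was lost with a term for the animal number (0.95, limma adjusted p = 0.189) and among the animals from Control_184 upwards (0.69, limma adjusted p = 0.493).

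The second CD55 probe set (Ssc.271.1.A1_at) had a lowest, median and highest value of 3.68, 4.46 and 5.60 in ND animals and of 3.43, 3.83 and 4.21 in control animals. ND_92, ND_194, ND_47 and ND_01 were the highest on it, at 5.60, 5.27, 5.16 and 5.01, and ND_86 and ND_100, at 3.68 and 3.80, lay under the control mean. The difference was 0.73 ± 0.21 (SE), or 1.66-fold (limma adjusted p = 0.0403). That call was lost in 13 of the 20 fits that left out 1 animal (limma adjusted p 0.0522 to 0.0700). These left out ND_01, ND_31, ND_47, ND_92 or ND_194, or any control other than Control_197 and Control_199. It was also lost with the animal number term (0.72) and among the animals from Control_184 upwards (0.60). The 2 probe sets followed each other among ND animals (Pearson r = 0.82 over 10 arrays) and less so among controls (r = 0.23 over 10 arrays), where both varied little. Whether the 2 differences, 1.28 and 0.73, differ from each other was not tested.

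The other 3 CD55 probe sets (Ssc.31082.1.A1_at, Ssc.7698.1.S1_at and Ssc.7698.2.A1_at) were at background on all 20 arrays. Their values ranged from 2.30 to 2.51 in ND and from 2.34 to 2.67 in controls, and their differences of -0.02, -0.07 and -0.02 say nothing of a level of CD55. Of the 7 member probe sets 3 were called higher, against 3.80% of all probe sets, and none was called lower, against 3.33%. Since the genes were chosen with earlier results of these data known, nothing is read from that count.

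**Figure D2:**
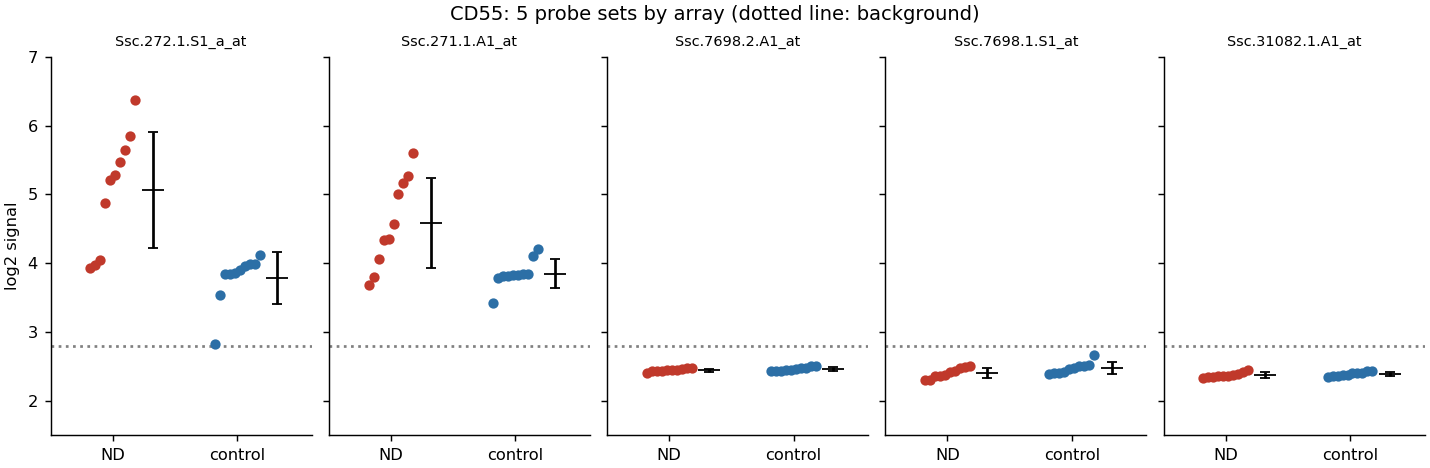
Log2 signal of the 5 CD55 probe sets on each array, with ND on the left and control on the right of each panel. Points are animals sorted by value, bars show the mean ± SD of 10 animals, and the dotted line marks the background level of 2.79. The first 2 probe sets read above background on every array and are higher in ND, and the other 3 read below it on every array. Control_157, at 2.82, is the lowest control value of Ssc.272.1.S1_a_at.

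The highest ND animals were partly shared between the 3 genes. ND_22, ND_47 and ND_92 were the 3 highest for C3 (9.19, 8.95 and 8.68) and for C1QC (10.52, 10.88 and 10.36), and ND_47 and ND_92 were also the highest for the brighter CD55 probe set (6.37 and 5.85). Other animals ranked differently: ND_31 was lowest of the ND group for C3 at 7.61 and yet had 5.29 for CD55. ND_86 was the reverse, with 8.62 for C3 and 3.93 for CD55. ND_198 was low for all: 7.86 for C3, 8.51 for C1QC and 4.04 for CD55. ND_47, ND_01, ND_22 and ND_92 had the highest array medians of the ND group (5.35, 5.34, 5.33 and 5.31). ND_193 and ND_198 had the lowest (5.15 and 5.17). Whether the shared ranking follows the array medians was not tested. Among the 10 ND animals, C1QC and CD55 had a Pearson r of 0.77 (permutation p = 0.00954, adjusted over 6 relations 0.0286) and a Spearman rho of 0.70 (permutation p = 0.0306, adjusted 0.0919). Without the 2 animals farthest from the median of C1QC, ND_22 and ND_47, r was 0.72, and among the 7 ND animals numbered up to 100 it was 0.81. Because CD55 has a gap in the ND group, this r partly compares the 3 low animals with the 7 others. C3 and C1QC had an r of 0.68 in ND (permutation p = 0.0342, adjusted 0.0683; rho 0.58, permutation p = 0.0890, adjusted 0.161) and of 0.77 in controls (permutation p = 0.00927, adjusted 0.0286; rho 0.76, permutation p = 0.0150, adjusted 0.0901). Without the 2 farthest animals these were 0.79 in ND and 0.60 in controls, and they were 0.56 among the 7 ND animals numbered up to 100 and 0.77 among the 9 controls numbered above 100. The relation of C1QC and CD55 in controls (r = 0.60) and those of C3 and CD55 (r = 0.46 in ND and 0.50 in controls) did not pass the adjustment (adjusted permutation p 0.0695, 0.179 and 0.179). Their rho values were 0.52, 0.48 and 0.54 (adjusted permutation p 0.161, 0.166 and 0.161).

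As the nearest patterns, the 3 genes with the highest Pearson r of deviations from the group means were taken over 20 arrays, among 5391 other genes above background on all arrays. For C1QC these were FCER1G (r = 0.93), the shared gamma chain of Fc receptors on myeloid and other leukocytes, CD53 (r = 0.90), a leukocyte tetraspanin, and CELF2 (r = 0.88), an RNA-binding protein. C1QA ranked 8th for C1QC, with r = 0.84. FCER1G had a median of 5.34 and a highest value of 7.49 in ND, against a median of 4.69 and a highest value of 5.04 in controls, a difference of 1.09 that did not pass (limma adjusted p = 0.0811). CD53 rose by 1.03 (limma adjusted p = 0.0122). For C3 the nearest were GSE1 (r = 0.86), SCAMP2 (r = 0.79), a protein of secretory carrier membranes, and FAM129A (r = 0.78), of which SCAMP2 was lower in ND by 0.24 (-0.24, limma adjusted p = 0.0438) and the other two did not pass. LAPTM5 ranked 9th for C3, with r = 0.74, and ITGB2 12th, with r = 0.72. Other leukocyte genes ranked lower for C3: CD53 39th (r = 0.67), TYROBP 105th (0.61) and FCER1G 167th (0.57). CTSS ranked 445th (0.46), CD163 810th (0.37), AIF1 919th (0.35) and MRC1 1114th (0.31). For the brighter CD55 probe set they were CDC23 (r = 0.90), a subunit of the anaphase-promoting complex, NCBP2 (r = 0.84), a subunit of the nuclear cap-binding complex, and COMMD2 (r = 0.82), none of which passed (differences -0.21, 0.17 and -0.17; limma adjusted p 0.515, 0.151 and 0.384). Of the leukocyte genes CD53 ranked 9th for it (r = 0.77), MRC1 17th (0.76) and CD163 32nd (0.73). LAPTM5 ranked 71st (0.68), FCER1G 74th (0.68), TYROBP 104th (0.66), CTSS 290th (0.58) and AIF1 1489th (0.28). On the dimmer CD55 probe set CD53, MRC1 and CD163 ranked 161st, 188th and 596th. For the dimmer CD55 probe set the nearest were the transcription factor GATA6 (r = 0.79), C1H15orf48 (r = 0.78) and the homeobox gene HOXB7 (r = 0.76), so the 2 CD55 probe sets had no nearest gene in common. Of these C1H15orf48 was higher in ND by 1.20 (limma adjusted p = 0.0346), and GATA6 and HOXB7 did not pass. Within controls alone the likeness of COMMD2 (r = 0.21) and HOXB7 (r = 0.19) was weak, against 0.95 and 0.85 within ND. The other nearest genes had r of 0.57 to 0.77 within controls.

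**Figure D3:**
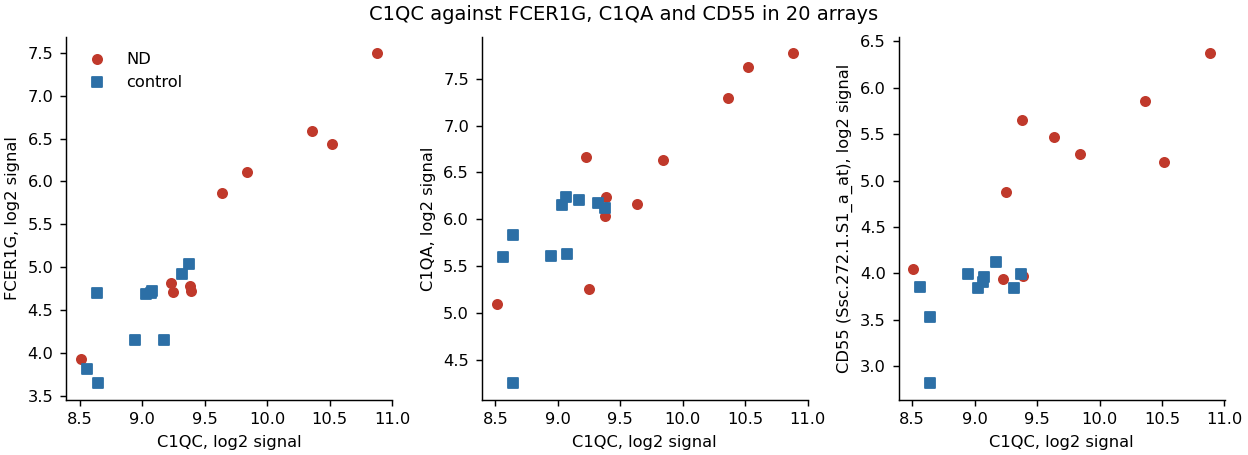
Log2 signal of C1QC (horizontal axis) against FCER1G, C1QA and the brighter CD55 probe set (vertical axes) in 10 ND and 10 control animals. Each point is 1 array. The 3 ND animals with C1QC above 10.3 (ND_47, ND_22 and ND_92) are also the highest for FCER1G and C1QA, and 3 ND animals lie among the controls for CD55.

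The other complement genes were set beside the 3 members. Of 58 listed genes 35 were measured, each by its brightest probe set, and 3 were higher in ND (C3, CD55 and ITGB2), none lower and 32 not called. That is 8.57% higher, where 9.99% of the 6765 genes were called, 5.44% higher and 4.55% lower, so the share called was near that of all genes. The share includes C3 and CD55, which were chosen with earlier results of these data known. At an unadjusted limma p under 0.05, 6 were higher and 3 lower, the latter including MBL2 at background. At an adjusted p under 0.10, which 13.2% of all probe sets passed, C1QC joined the higher genes, and C8B and VSIG4 were lower. That 13.2% is not a share of genes by brightest probe set. At 0.05 the share was 7.13% of all probe sets but 9.99% of such genes. The median difference of the list was 0.03, against -0.02 for all 6765 genes. Without C3, C1QC and CD55, 1 of 32 (3.1%) was called, against the 9.99% of all genes, and 16 differences were above 0 and 16 below. MBL2, CRP, C8A, C8G, CR1, ITGAM and VTN were at background on all arrays.

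Among the 9 initiation genes none was called by limma, and 2 were higher and 1 lower at an unadjusted p under 0.05. The lower gene was MBL2, at background on all arrays. The C1 proteases C1R and C1S differed by 0.16 and 0.36 (limma adjusted p 0.459 and 0.131), and the pattern recognition molecule PTX3 by 0.13 (0.816). FCN1, another such molecule, read above background on 4 ND arrays only and differed by 0.18 (limma adjusted p = 0.171). In the alternative pathway factor D (CFD), the protease that activates factor B, differed by 0.40 (limma adjusted p = 0.118). Factor B itself (CFB) varied widely, between 2.90 and 8.15 in ND and between 4.55 and 7.96 in controls, and differed by -0.67 (limma adjusted p = 0.400). Beside C3, the central components C4A and C5 differed by -0.41 and -0.48 and did not pass (limma adjusted p 0.546 and 0.393), and C2 read above background on 2 ND arrays only.

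The terminal component C8B, a chain of the membrane attack complex, had the largest negative difference of the list, which missed the threshold. C8B ranged from 3.56 to 6.42 with a median of 4.54 in ND and from 4.36 to 7.66 with a median of 6.08 in controls. The difference was -1.26 ± 0.41 (SE; limma adjusted p = 0.0697), and a second C8B probe set gave -0.95. C8B was called lower with array medians made equal, with dim probe sets left out, and without ND_31 or Control_199. C7 and C9 differed by -0.07 and -0.29 (limma adjusted p 0.673 and 0.485).

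Among receptors, ITGB2, the beta chain of complement receptors 3 and 4 and of other leukocyte integrins, was higher in ND. It had a lowest, median and highest value of 5.18, 5.63 and 6.999 in ND and of 4.60, 5.07 and 5.34 in controls. The difference was 0.83 ± 0.22 (SE; limma adjusted p = 0.0286), and leaving out Control_157, Control_187 or ND_01 ended the call (limma adjusted p 0.05001 to 0.0526). For ITGB2 6 of 10 ND animals were above all controls, and at least 5 were so for 7.07% of all probe sets. ITGAM, its partner in complement receptor 3, was at background on all arrays. VSIG4, a receptor for C3 fragments on resident macrophages, differed by -0.99 ± 0.36 (SE; limma adjusted p = 0.0983), with a median of 4.52 in ND and 5.59 in controls, and was called lower with array medians made equal, with array weights and without ND_22. CD93, once described as a C1q receptor, differed by 0.79 (limma adjusted p = 0.171).

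CD55 was the 1 membrane regulator of 3 that was called. CD46, a cofactor for the cleavage of C3b, and CD59, which blocks the membrane attack complex, were bright in both groups. On their brightest probe sets they differed by little. CD46 averaged 11.28 ± 0.47 in ND and 11.25 ± 0.26 in controls (SD, n = 10 each), a difference of 0.03 with a 95% interval of -0.31 to 0.38. CD59 averaged 10.89 ± 0.44 in ND and 10.82 ± 0.31 in controls (SD, n = 10 each), a difference of 0.07 with a 95% interval of -0.28 to 0.42. The other 2 CD46 probe sets differed by 0.25 and 0.41 and were not called, and a second CD59 probe set differed by -0.02. Whether the CD55 difference exceeds those of CD46 and CD59 was not tested. Of 6 soluble regulators none was called by limma, and none had an unadjusted p under 0.05. The C1 inhibitor gene SERPING1 differed by 0.32, clusterin (CLU) by 0.50 and C4BPA, which lies beside CD55 in the Sscrofa11.1 annotation, by 0.44 (limma adjusted p 0.249, 0.372 and 0.511).

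**Figure D4:**
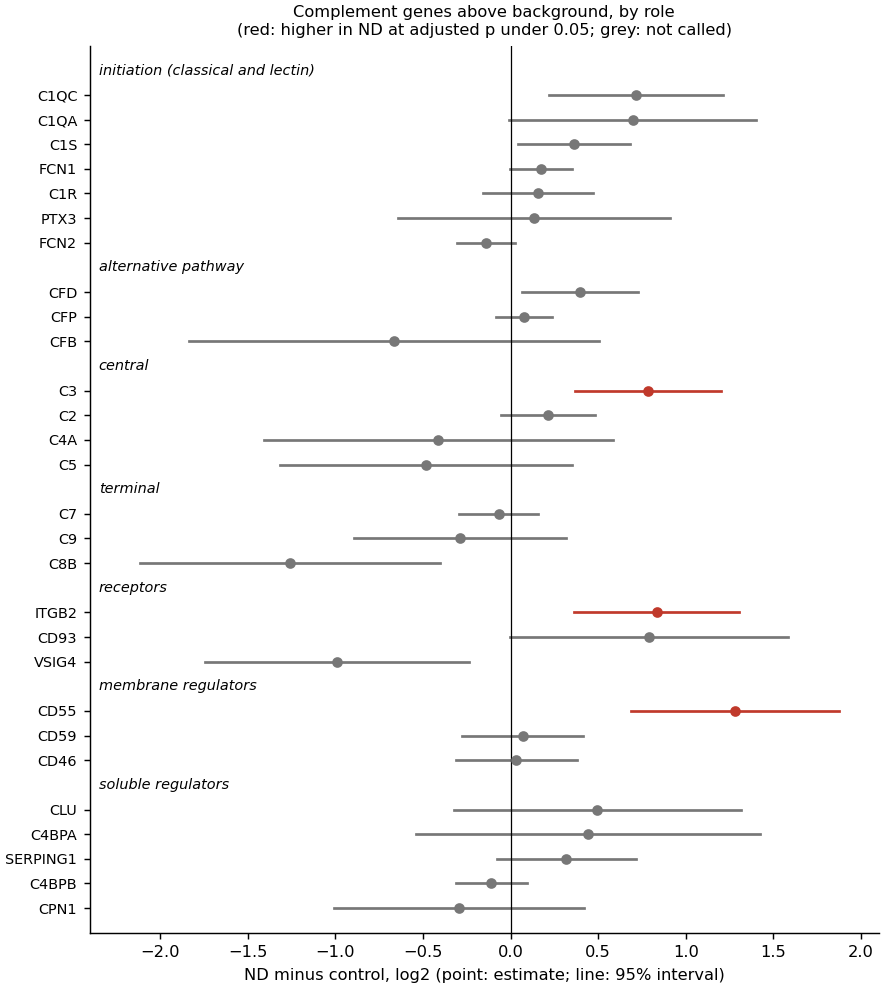
Difference ND minus control (log2) of the 28 complement genes above background on at least 1 array, grouped by role. Points are limma estimates, lines are 95% intervals without adjustment for the number of genes, red marks the 3 genes called higher in ND and grey those not called. CD55 has the largest positive and C8B the largest negative difference, of 1.28 and -1.26.

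C3 is also known as an acute phase gene, so genes of that response were set beside it. Of 25 listed acute phase and NF-kB genes 17 were measured. By their brightest probe sets, 1 was called higher (5.88%, against 5.44% of all genes) and none lower. CEBPD had 2 other probe sets, with differences of -0.50 and -0.12, and 1 of them was called lower. At an unadjusted limma p under 0.05, 2 were higher and 4 lower. Of the lower genes HP and NFKB1 were at background on all arrays, and LBP was above it on 2 control arrays only. A second LBP probe set differed by 0.70 and was not called. The gene called was SAA2, for serum amyloid A, with a median of 9.22 in ND and 8.52 in controls (0.84 ± 0.15, SE; limma adjusted p = 0.00271). In ND 9 of 10 animals were above all controls, and at least 7 were so for 2.61% of all probe sets. By deviations from the group means over 20 arrays SAA2 had r = 0.20 with C3 and ranked 1727th of 5391 genes. A second SAA2 probe set differed by -0.05. The fibrinogen genes FGB and FGG differed by -1.50 and -1.71 and did not pass (limma adjusted p 0.0528 and 0.172), and IL1B differed by 0.57 (limma adjusted p = 0.102). STAT3, CEBPB and NFKBIA differed by 0.11, -0.14 and -0.02.

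The animal numbers in the labels were unevenly spread over the groups, with 7 of 10 ND animals but 1 of 10 controls numbered up to 100, and the labels do not say what a number stands for. Among the animals from Control_184 upwards, C3 read 7.82, 7.86 and 8.18 in the 3 ND animals and 7.01 to 8.06 in 5 controls (difference 0.43, limma adjusted p = 0.484). C1QC read 8.51, 9.38 and 9.39 in these ND animals and 8.56 to 9.38 in the controls (difference 0.17, limma adjusted p = 0.752). The brighter CD55 probe set read 3.97, 4.04 and 5.65 in the same ND animals and 3.53 to 3.99 in the controls (difference 0.69, limma adjusted p = 0.493). The 7 ND animals numbered up to 100 had medians of 8.63 for C3, 9.84 for C1QC and 5.29 for CD55, against 7.68, 9.07 and 3.91 in the single control of that range, Control_02. With a term for this split in the fit, the differences were 0.52, 0.34 and 0.95, and none passed (limma adjusted p 0.328, 0.724 and 0.189). All 3 stayed positive, and what the number adds to the difference cannot be told apart from ND with 1 control on that side.

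**Figure D5:**
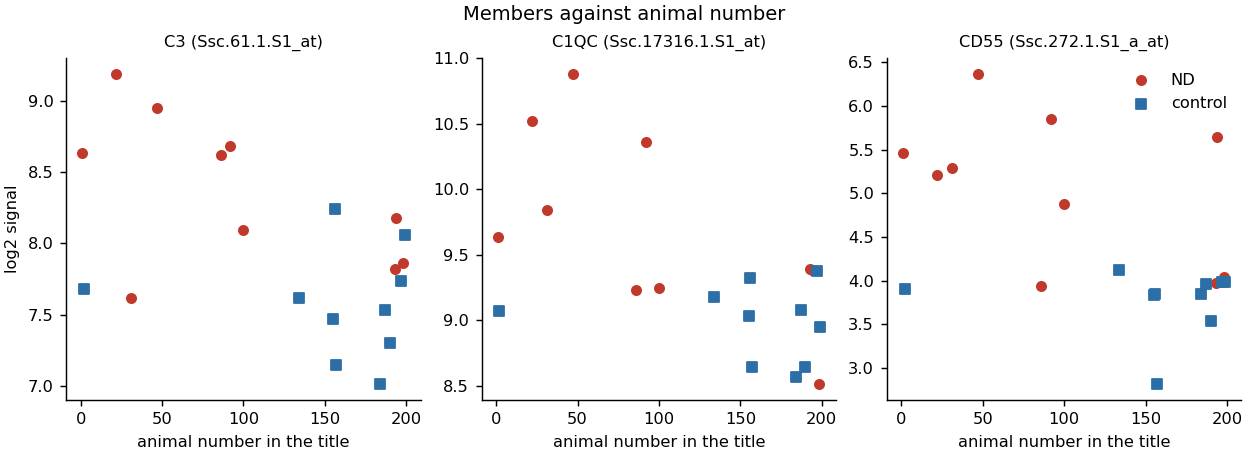
Log2 signal of C3, C1QC and the brighter CD55 probe set (vertical axes) against the animal number in the title (horizontal axis), for 10 ND animals (circles) and 10 controls (squares). Controls numbered up to 100 are represented by Control_02 alone, and the 3 ND animals with the highest numbers (ND_193, ND_194 and ND_198) lie within the range of the controls for C3, of which ND_193 and ND_198 do so for CD55 as well, at 3.97 and 4.04. For C1QC they read 8.51 to 9.39, against 8.56 to 9.38 in the controls.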

How the data were processed

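The authors deposited 1 log2 value per probe set and array for kidney RNA of 20 pigs. The unit was inferred from the range, 0.88 to 16.2, and the background correction, summarisation and normalisation are not given in the sources used here, which can move the balance of rises and falls. Per the labels' protocols, TRIzol was used for RNA extraction and biotin-tagged cRNA was made from 250 ng of RNA. The labels mention 2 specimens per animal but list 1 array for each. Of 24123 probe sets, 124 controls were left out. Symbols came from the platform annotation (10069 probe sets with 1 symbol, 198 with several, 13732 with none), and 9961 matched RefSeq by gene ID. A gene was represented by its brightest probe set.

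Groups were compared with limma 3.58.1 in R 4.3.3 (lmFit, eBayes, no covariate). The code was tested on simulated data. Correlations used permutation tests (100000 resamples, Python 3.11.15), two-sided. Members, lists and the rule for named genes (all members, complement genes by role, the 3 nearest patterns, markers beside a member) were chosen with earlier results of these data known. CD83, FCER1G, CD53 and SAA2 come from these lists or that rule. Alternatives covered scaling, a filter on probe sets above background on under 10 arrays, the variance model, array weights, animal number, the threshold, gene means and leaving out animals. Probe and transcript sequences were not used here.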

Additional observations from a re-analysis of the deposited data

Results flagged for a closer look

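Control_157 read 2.82 for the brighter CD55 probe set, just above the background level of 2.79, while the other 9 controls read 3.53 to 4.12. Its distance from the next control was 0.551 of the range of the group, above Dixon's 95% critical value for 10 samples. Chance gives such a distance in about 1 in 20 groups, and 10 groups were examined. Without Control_157 the CD55 difference was 1.17 (limma adjusted p = 0.0190). The same animal read 3.79 on the second CD55 probe set, near the control median of 3.83.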

How the results depend on the processing

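No paired analysis was possible because the groups share no animal number. C3 and both CD55 probe sets above background stayed positive in every alternative run, and C1QC as well. With the animal number term the differences were 0.52 for C3, 0.95 for the brighter and 0.72 for the dimmer CD55 probe set, and among the animals from Control_184 upwards 0.43, 0.69 and 0.60, and none passed. Without ND_47 and ND_92, C3 (0.67) and the dimmer CD55 probe set (0.54) did not pass and the brighter did (1.02, limma adjusted p = 0.0243). C1QC passed with every array shifted to the same median (0.63, limma adjusted p = 0.0490) and with dim probe sets left out, where fewer probe sets were tested (0.72, limma adjusted p = 0.0478). A permutation test of its difference of 0.72 gave an unadjusted p of 0.00766. That cannot be set against the adjusted threshold, since the main limma fit had an unadjusted p of 0.00685 and did not pass. C1QC did not pass with quantile normalisation (0.72), the variance trend (0.72), array weights (0.56, limma adjusted p = 0.0903), the animal number term (0.34), among the animals from Control_184 upwards (0.17) or without ND_47 and ND_92 (0.49, limma adjusted p = 0.185). Leaving out single animals gave 0.58 to 0.85 for C1QC and 0.62 to 0.84 for the dimmer CD55 probe set. ITGB2 lost its call with the animal number term, among the animals from Control_184 upwards, and without ND_47 and ND_92 (0.47, 0.20 and 0.71).

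Of all probe sets 1712 changed, against 8789 with array medians made equal (1061 higher, 7728 lower, with the median of all differences at -0.12 in place of -0.03), 505 with the animal number term and 57 among the animals from Control_184 upwards. Quantile normalisation gave 917 higher and 1198 lower. Of the complement genes 3 changed, against 11 with equal medians (4 higher, 7 lower), 5 with dim probe sets left out, 6 at an adjusted p under 0.10, 1 without ND_47 and ND_92 (CD55), and 2 to 5 without single animals, with 5 reached without ND_198. The 7 lower genes with equal medians held MBL2, CRP, C8A and ITGAM, at background on all arrays, and FCN2, above it on 1 control array only. The others were C8B and VSIG4. With the animal number term 0 passed by limma (3 higher and 2 lower at an unadjusted p under 0.05), and among the animals from Control_184 upwards 0 passed (0 higher and 1 lower). The causes were not tested.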
